A study of Mus musculus with 11 samples.

Results

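In the mouse genome, 9 windows on 6 chromosomes hold long runs of non-coding RNA features that were more abundant in retinas of Nrl knockout mice than in wild-type retinas. The windows were selected on that difference in the same libraries, so the differences between the genotypes are given below as descriptions. Calls of a fit over all features are printed beside the share that the fit called among all features, and they do not test the runs. Every feature of the deposited table that overlapped a window counted as a member. This gave 278 members of 36097 unique features in all. Each run is called by a gene name: Gm47456, Gm19786 and Gm20327 on chromosome 12, Gm38563 and 4930543I03Rik on chromosome 15, Gm42339 on chromosome 4, Gm31615 on chromosome 17, Gm41734 on chromosome 18 and Adrb1 on chromosome 19. The names are labels of place, since 202 of the 278 members are intergenic in the annotation used here. These include all 25 members of the Gm42339 run and 44 of the 45 of the Gm41734 run.

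The study sequenced RNA depleted of poly(A) transcripts from whole retina at postnatal day 21, in 6 Nrl knockout libraries and 5 wild-type libraries. The labels give no strain, allele, animal or batch for a library. Replicates are therefore libraries, and their spread may be partly technical. No agent was given to either genotype according to the labels.

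Nrl is a transcription factor of the Maf family that directs photoreceptor precursors towards the rod fate, and without it the precursors become cells that resemble cones. Long non-coding RNAs are transcripts with no recognised protein. Some are spliced and polyadenylated, and others stay in the nucleus as unspliced RNA without a poly(A) tail, which an assembler can report as a row of neighbouring fragments on the same strand. A library depleted of poly(A) transcripts favours RNA of the second kind.

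The features held 3374221 to 4876429 reads in Nrl knockout libraries and 3238184 to 4150460 reads in wild-type libraries, and their 10 most abundant features took 33.9% to 53.5% of them in Nrl knockout and 34.8% to 46.4% in wild-type libraries. Nrl itself was checked through MSTRG.28375, a feature on the plus strand opposite the Nrl gene, which had 0.126 ± 0.310 normalised counts in Nrl knockout and 42.1 ± 9.42 in wild-type libraries (SD, n = 6 and 5). It was at 0 in 5 of 6 Nrl knockout libraries. Features on rod marker genes summed to 351.9 to 558.4 normalised counts in Nrl knockout and 2990 to 5091 in wild-type libraries, with 4 of 36 tested features higher and 25 lower. Features on cone marker genes summed to 1277 to 1974 normalised counts in Nrl knockout and 378.3 to 422.3 in wild-type libraries, with 18 of 27 higher and 2 lower. Bipolar marker features summed to 502 to 736.2 in Nrl knockout and 374 to 651.4 in wild-type libraries, with 2 of 14 higher and 1 lower. Features on Müller glia markers summed to 12.7 to 25.9 in Nrl knockout and 28.2 to 52.7 in wild-type libraries, with none of 2 higher and 1 lower. The 1 feature on lens markers had 7.81 to 43.2 in Nrl knockout and 24.2 to 61.7 in wild-type libraries and was not called, no feature lay on the retinal pigment epithelium and vascular markers, and the 1 feature on microglia markers had 0 to 8.79 in Nrl knockout and 0.941 to 5.57 in wild-type libraries. Features lay on 12 of 14 rod, 9 of 12 cone, 6 of 7 bipolar, 2 of 6 Müller glia, 1 of 6 microglia and 1 of 4 lens marker genes. The Müller glia sum rests on 4 features, and Aqp4, Gfap, Glul and Rlbp1 had none. The rod, cone and Müller glia sums kept the genotypes apart, as the sums of the runs did, and their part in the differences given below was not tested. In whole retina, more cells of a type and more RNA per cell cannot be told apart.

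Sequence around an annotated transcription start was held by the RefSeq table (GRCm38.p6) for 18 start windows in 4 runs, each of 300 bases. The 4 that follow were chosen as the starts closest to the upstream end of a member in the Gm31615 and Adrb1 runs, the only start window of the Gm38563 run, and the start of the coding gene Adrb1. In capitals are matches, read on the printed strand or on its complement, to TAATCC, the core bound by the homeodomain factors Crx and Otx2, to TGCTGA, part of the element bound by Maf proteins such as Nrl, and to TATAAA, the TATA box. The Gm31615 start, chr17:88388609-88388908 on the minus strand, lies 101 bp from the upstream end of MSTRG.40948, the most abundant member of its run. The Gm38563 window, chr15:61156907-61157206 on the plus strand, lies inside MSTRG.31826. The Gm32441 start, chr19:56664577-56664876 on the minus strand, is 916 bp from the upstream end of MSTRG.46592. The Adrb1 window, chr19:56721867-56722166 on the plus strand, is that of the coding gene, and the nearest start of a member on that strand is 21336 bp away.
Gm31615: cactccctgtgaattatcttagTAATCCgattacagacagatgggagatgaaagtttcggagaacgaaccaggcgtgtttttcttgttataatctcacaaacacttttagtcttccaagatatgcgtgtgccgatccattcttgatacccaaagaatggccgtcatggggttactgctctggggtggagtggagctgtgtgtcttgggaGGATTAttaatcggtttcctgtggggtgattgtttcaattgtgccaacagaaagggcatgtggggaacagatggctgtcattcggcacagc
Gm38563: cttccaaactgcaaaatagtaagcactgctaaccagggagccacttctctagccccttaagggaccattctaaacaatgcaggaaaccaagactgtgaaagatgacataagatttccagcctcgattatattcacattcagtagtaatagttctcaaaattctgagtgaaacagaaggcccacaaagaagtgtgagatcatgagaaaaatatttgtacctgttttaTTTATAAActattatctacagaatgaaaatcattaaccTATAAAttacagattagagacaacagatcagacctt
Gm32441: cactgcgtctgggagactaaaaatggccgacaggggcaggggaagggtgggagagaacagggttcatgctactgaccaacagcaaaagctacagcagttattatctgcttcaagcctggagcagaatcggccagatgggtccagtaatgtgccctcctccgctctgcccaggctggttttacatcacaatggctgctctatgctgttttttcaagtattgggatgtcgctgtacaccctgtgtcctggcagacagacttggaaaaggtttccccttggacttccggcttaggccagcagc
Adrb1: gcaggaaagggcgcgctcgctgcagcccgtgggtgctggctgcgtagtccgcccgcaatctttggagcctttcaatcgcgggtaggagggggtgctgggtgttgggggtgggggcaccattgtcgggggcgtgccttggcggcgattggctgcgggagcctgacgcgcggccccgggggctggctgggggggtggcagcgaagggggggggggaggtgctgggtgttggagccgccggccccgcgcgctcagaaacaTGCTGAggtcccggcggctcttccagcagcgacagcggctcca
TAATCC was found in 1 of the 18 windows, the Gm31615 start above with 2 matches, against 7.06% of 32851 RefSeq start windows of the same length. TGCTGA was found in 3 of 18, against 19.5% of all windows. TATAAA was found in 8 of 18, against 13.6%, but 5 of these 8 are overlapping starts of 1 gene, 1700116H05Rik, and share their match. The Gm38563 window holds 3 TATAAA matches, a pair of which overlap on opposite strands.

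The runs were laid out differently. By strand, 252 of the 278 members lay on the main strand of their run, the strand with most of its reads, and 26 on the other. All members of the Gm38563 and Gm19786 runs lay on the plus strand, and all members of the Gm42339, Gm31615 and Gm20327 runs on the minus strand. Of the remaining runs, Gm47456 had 61 members on the minus and 7 on the plus strand, Gm41734 had 37 on the plus and 8 on the minus strand, 4930543I03Rik had 16 on the plus and 3 on the minus strand, and Adrb1 had 9 on the minus and 8 on the plus strand. In level, the Adrb1 run was mixed in both genotypes, with 79.3% on its main strand in Nrl knockout and 76.1% in wild-type libraries. The Gm47456 run was mixed in wild-type libraries alone, with 98.2% on the main strand in Nrl knockout and 76.9% in wild-type libraries. The main strand held 96.9% of the Gm41734 run in Nrl knockout and 93.3% in wild-type libraries, and 98.9% of the 4930543I03Rik run in both genotypes.

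Density differed widely between the tightest and the most open run. Gm19786 packed 21 members into 33 kb, or 63.6 per 100 kb, and 4930543I03Rik spread 19 members over 214 kb, or 8.88 per 100 kb. Members and covered length did not go together, because 4930543I03Rik had the highest share of its window under members, 84.1%, and Gm38563 the lowest, 39.1%. The 4930543I03Rik members include MSTRG.33167, the longest of all members at 83574 bp, whereas the 30 members of the Gm20327 run had a median length of 171.5 bp. The largest stretch without a member was 92.9 kb, in the Gm38563 run just downstream of its most abundant member, and the smallest such maximum was 1.495 kb, in the Gm19786 run. Over all runs 764.5 kb of 1352 kb lay under members. Members had a median length of 437.5 bp, against 235 bp over all features, and 30 of them, or 10.8%, were 5 kb or longer, against 4.26% of all features.

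**Figure D1:**
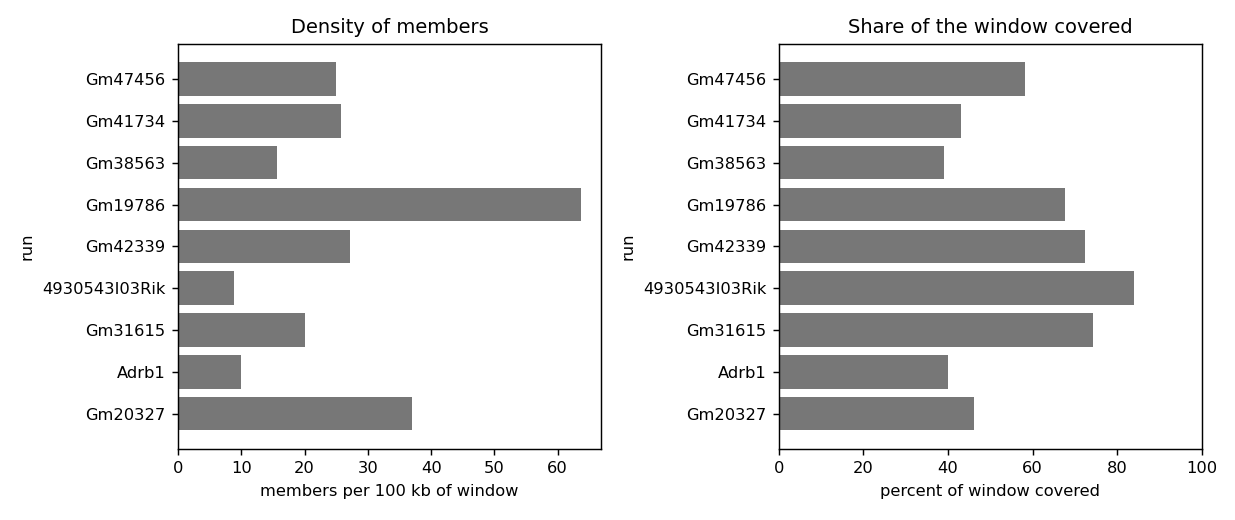
Members per 100 kb of window (left) and percent of the window covered by members (right) for each of the 9 runs. Gm19786 has the highest number of members per 100 kb, 63.6, and 4930543I03Rik has the lowest number, 8.88, with the highest covered share, 84.1%.

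In level, each run was higher in every Nrl knockout library than in any wild-type library. Of the 185 members with a mean of at least 5 normalised counts, which were tested with limma over all 21395 such features, 181 were called higher and 3 lower at an adjusted p below 0.05, and 1, MSTRG.19306, was not called. The same test called 15.6% of all tested features higher and 12.6% lower. Since the windows were picked on this contrast, nothing is read from the members' share. With no filter on low values, 251 members were called higher and 4 lower, against 12% and 9.12% of all features, and with a mean of at least 20, 92 were called higher and 2 lower, against 20.8% and 19.7%. The median log2 difference of the tested members was 2.53, against -0.02 for all tested features. The other 93 members were too low to be tested, and counting all 278, 211 had every Nrl knockout library above every wild-type library, which held for 8.28% of all features. Of the 185 tested members, 162 did, against 11.1% of all tested features. Together the members held 1.39% of the reads in features in Nrl knockout and 0.214% in wild-type libraries.

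**Figure D2:**
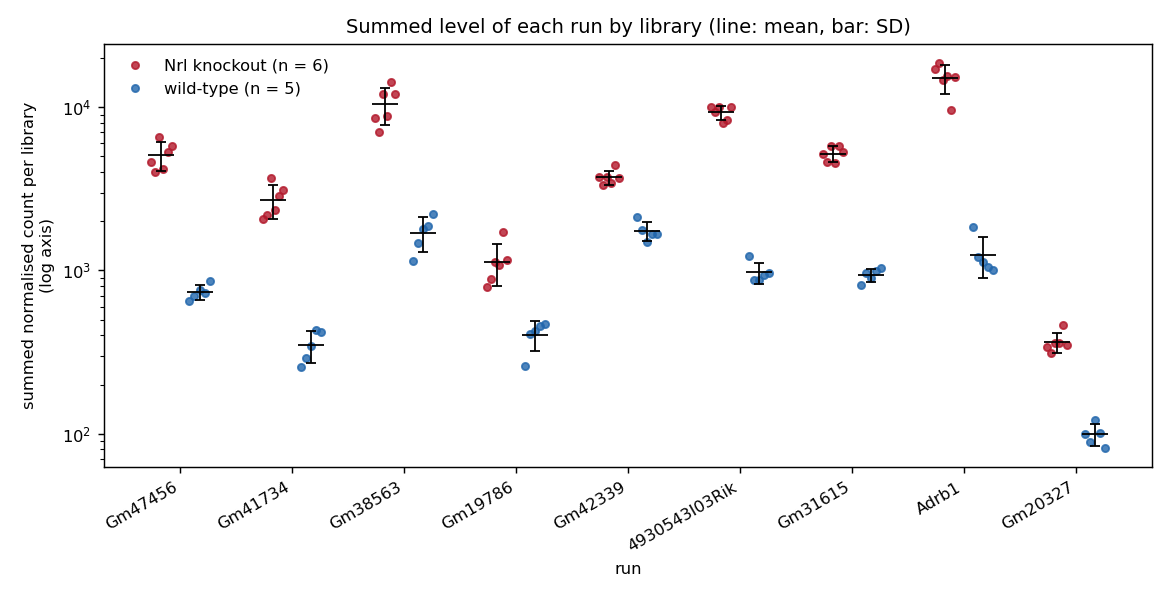
Summed normalised count of each run in every library (log axis); points are libraries, lines are means and bars SD, for 6 Nrl knockout and 5 wild-type libraries. In all 9 runs the Nrl knockout points lie above the wild-type points; the ratio of means goes from 2.12 (Gm42339) to 12.2 (Adrb1).

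The Adrb1 run had the largest difference and the highest level. It spans 171 kb of chromosome 19 (56587000 to 56758000, mm10, as are all positions here), across the downstream part of Nhlrc2, a gene for an NHL-repeat protein, and across Adrb1, the gene of the beta-1 adrenergic receptor. Its 17 members summed to between 9639 and 18598 normalised counts in Nrl knockout libraries, with a median of 15394, against 1854, 1206, 1125, 1043 and 1012 in wild-type libraries. The means were 15159 ± 3061 in Nrl knockout and 1248 ± 347 in wild-type libraries (SD, n = 6 and 5), a 12.2-fold ratio and a log2 difference of 3.61. Most of this was MSTRG.46587 (56592068 to 56619061, minus strand, 26994 bp), opposite an exon of Nhlrc2, which took 66.9% of the run in Nrl knockout and 65.2% in wild-type libraries. It had 11019, 12746, 10064, 10288, 6375 and 10315 normalised counts in Nrl knockout libraries 1 to 6, against 1229, 799.8, 729.5, 650 and 658.7 in wild-type libraries 1 to 5. Knockout 5 was the lowest of its group and wild-type 1 the highest of its own, and the groups stayed well apart.

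Beside it, MSTRG.46586 (56587613 to 56588875, minus strand), also opposite a Nhlrc2 exon, had the largest log2 difference of all tested members, 5.00 ± 0.33 (SE). It held 67.6, 46.5, 38.2, 47.0, 54.6 and 55.7 normalised counts in Nrl knockout libraries, against 0, 0, 1.86, 0.967 and 1.01 in wild-type libraries. That is 335 reads in Nrl knockout and 4 in wild-type libraries, a read ratio of 62.7 with a 95% interval of 24.2 to 231.3 that covers counting error only. The sources used here do not say whether reads were counted by strand, so reads of these members and of Nhlrc2 cannot be told apart with certainty. At the other end of the window MSTRG.46608 (56755880 to 56757484, plus strand) differed least, with 64.7 ± 9.51 normalised counts in Nrl knockout and 25.7 ± 6.14 in wild-type libraries and a log2 difference of 1.32. The Adrb1 run was the 1 run with high members on both strands: MSTRG.46588 on the plus strand (56613813 to 56619916), most of which lies opposite MSTRG.46587, had 1522 ± 360 normalised counts in Nrl knockout and 109.7 ± 40.4 in wild-type libraries. MSTRG.46601 (plus, 56700781 to 56713922) and MSTRG.46602 (minus, 56707098 to 56712151) also overlap on opposite strands. MSTRG.46601 had 836 ± 208 normalised counts in Nrl knockout and 52.9 ± 10.7 in wild-type libraries, and MSTRG.46602 had 1088 ± 192 in Nrl knockout and 62.4 ± 16.4 in wild-type libraries.

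The 4930543I03Rik run (chromosome 15, 86590000 to 86804000) came next, with 9287 ± 886 normalised counts in Nrl knockout and 973 ± 144 in wild-type libraries, a ratio of 9.54 and a log2 difference of 3.26. It was also the least variable between Nrl knockout libraries, whose coefficient of variation was 9.54%. The 4 members of 5 kb or more, one after the other on the plus strand, held 92.0% of its level in Nrl knockout libraries, and their log2 differences were within 3.22 and 3.28. The longest, MSTRG.33167 (86711342 to 86794915), covers exons of the non-coding genes Gm49464 and 4930543I03Rik, and had 5255, 4646, 3795, 3736, 2562 and 4086 normalised counts in Nrl knockout libraries, against 640.5, 385.8, 384.2, 369.5 and 370.2 in wild-type libraries. MSTRG.33155 (86628936 to 86664945), upstream of it, had 1464, 1365, 2079, 1494, 2267 and 2090 in Nrl knockout libraries, against 187.9, 160.9, 156.9, 189.6 and 234.0 in wild-type libraries. Knockout 5 was thus lowest for the downstream member and highest for the upstream one, and wild-type 1 was highest for the downstream member but not for the upstream one. Of the short members, MSTRG.33165 (86700424 to 86701024) had 12.2 ± 3.71 normalised counts in Nrl knockout and no read in any wild-type library, which is at least 3.90-fold higher when the floor of 3 reads per library stands for wild-type. MSTRG.33166 (86709382 to 86709787), in an intron of Gm49464, had the smallest log2 difference of the run, 2.30, with 10.1 ± 4.44 normalised counts in Nrl knockout and 1.33 ± 1.06 in wild-type libraries.

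The Gm41734 run (chromosome 18, 55672000 to 55847000) lay between Zfp608, a zinc-finger gene whose start is 679.4 kb to the left, and Gramd3, a gene for a GRAM-domain protein whose start is 553.3 kb to the right. Its 45 members summed to 2063 to 3664 normalised counts in Nrl knockout libraries, with a median of 2604, against 256.5, 292.6, 342.5, 433.3 and 418.6 in wild-type libraries. The ratio of means was 7.76 and the log2 difference 2.95. No single member dominated this run, since the highest, MSTRG.43048 (55676942 to 55689859, plus strand), took 20.4% of it in Nrl knockout and 20.2% in wild-type libraries. MSTRG.43048 had 552 ± 157 normalised counts in Nrl knockout and 70.5 ± 19.5 in wild-type libraries, a log2 difference of 2.94. The largest difference was at MSTRG.43049 (55690644 to 55692052), 37.6 ± 13.1 normalised counts in Nrl knockout and 2.07 ± 2.56 in wild-type libraries, or 3.91 on the log2 scale. The smallest, 1.31, was at MSTRG.43101 on the other strand (55846227 to 55846909), with 25.3 ± 8.16 normalised counts in Nrl knockout and 10.2 ± 6.18 in wild-type libraries. For MSTRG.43101 the groups overlapped: knockout 1, at 11.4, was below wild-type 5, at 20.2, and wild-type 2, at 12.2.

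The Gm47456 run (chromosome 12, 68210000 to 68483000) was the longest and had the most members, 68, of which 37 lie on the strand of the lincRNA gene Gm47456, 36 of them within its introns. It held 5081 ± 999 normalised counts in Nrl knockout and 741 ± 78.5 in wild-type libraries, a ratio of 6.86. MSTRG.20477 (68451571 to 68482696, minus strand), at the upstream end, took 41.4% of the run in Nrl knockout and 36.3% in wild-type libraries. It had 1934, 1614, 2735, 1764, 2095 and 2475 normalised counts in Nrl knockout libraries, against 197.5, 269.1, 309.1, 267.0 and 300.6 in wild-type libraries. The groups were far apart, with a log2 difference of 2.96. MSTRG.20434 (68331946 to 68334419), opposite an exon of Gm47454, a gene annotated as awaiting experimental evidence, differed most among the tested members of the run, at 79.6 ± 23.8 normalised counts in Nrl knockout and 5.44 ± 2.50 in wild-type libraries, a log2 difference of 3.70.

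Within MSTRG.20477, on the opposite strand, lay the 7 plus-strand members of the run, and these went the other way. Summed, they had 60.7 to 117.5 normalised counts in Nrl knockout and 146.6 to 212.6 in wild-type libraries, with no overlap, and a log2 difference of -0.91. All 7 had a lower mean in Nrl knockout, and the 3 that could be tested were the 3 members called lower. MSTRG.20479 (68466509 to 68467572) had 29.1, 20.2, 19.1, 17.3, 9.10 and 21.5 normalised counts in Nrl knockout libraries, against 48.0, 39.5, 37.1, 37.7 and 49.4 in wild-type libraries. Its log2 difference was -1.15, and every Nrl knockout library was below every wild-type library. Near it, MSTRG.20478 had 57.4 ± 13.8 normalised counts in Nrl knockout and 94.7 ± 19.1 in wild-type libraries, and MSTRG.20480 had 5.14 ± 1.56 in Nrl knockout and 12.03 ± 1.85 in wild-type libraries. Without the plus-strand members the log2 difference of the Gm47456 run was 3.12 in place of 2.76. In the other 3 runs with members on both strands, the strand with fewer reads differed in the same direction as the main one, by 1.86 against 3.00 on the log2 scale for Gm41734, 3.16 against 3.26 for 4930543I03Rik and 3.38 against 3.67 for Adrb1, and all 11 of its tested members there were called higher.

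**Figure D3:**
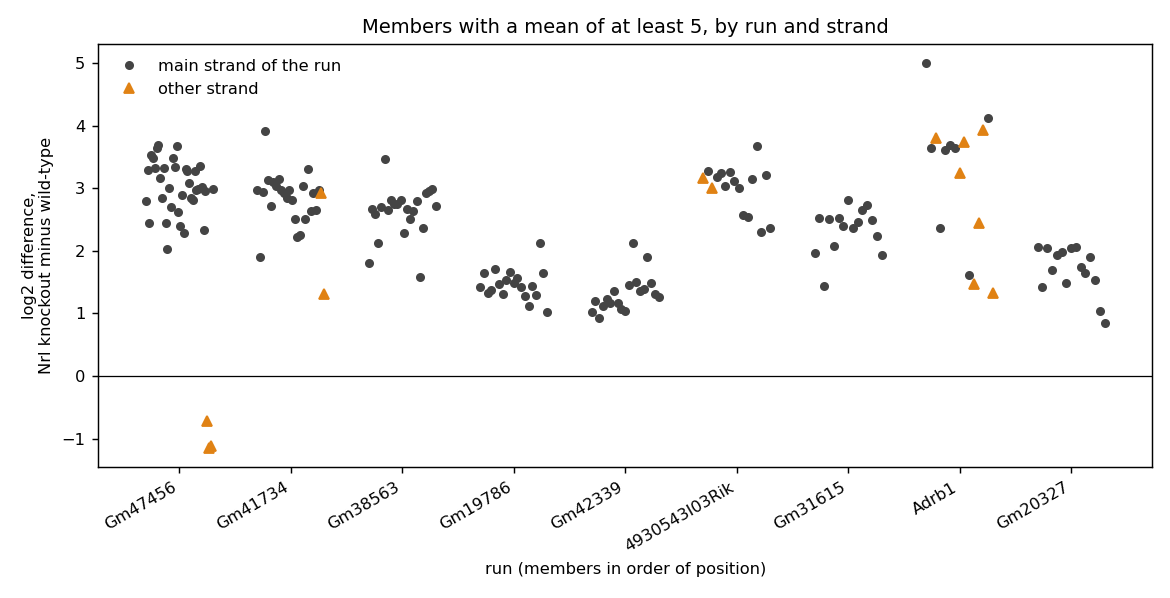
Log2 difference, Nrl knockout minus wild-type, of the 185 members with a mean of at least 5 normalised counts, by run and in order of position; circles lie on the main strand of the run and triangles on the other. The 3 triangles below 0 are the plus-strand members of the Gm47456 run; the other 182 members lie between 0.84 and 5.00.

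The Gm38563 run (chromosome 15, 60973000 to 61191000) starts 49.99 kb from the start of A1bg, the gene of alpha-1-B glycoprotein, and ends 794.4 kb before Myc, the proto-oncogene transcription factor. It had 8591, 7082, 12005, 8857, 14252 and 12051 normalised counts in Nrl knockout libraries, against 1137, 1475, 1800, 1876 and 2219 in wild-type libraries. Its spread was wide, with a coefficient of variation of 25.9% in Nrl knockout and 24.2% in wild-type libraries, and the log2 difference was 2.62. A single intergenic member, MSTRG.31815 (60986660 to 61026423, plus strand, 39764 bp), held 85.5% of the run in Nrl knockout and 86.9% in wild-type libraries, and without it the log2 difference of the run was 2.75. MSTRG.31815 had 8952 ± 2232 normalised counts in Nrl knockout and 1479 ± 348 in wild-type libraries. MSTRG.31819 (61134341 to 61137864) had the largest log2 difference of the run, 3.47, and wide error, ± 0.76 (SE), with 50.5 to 145.6 normalised counts in Nrl knockout libraries, against 0, 4.71, 8.35, 20.3 and 22.2 in wild-type libraries. Wild-type 1 was the library at 0, and without it the log2 difference of MSTRG.31819 was 2.73, below the 2.99 of MSTRG.31844 over all libraries. Its ratio of means was 8.07. The smallest, 1.59, was at MSTRG.31837 (61177319 to 61177574), with 7.81 ± 3.29 normalised counts in Nrl knockout and 1.80 ± 0.672 in wild-type libraries.

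The Gm31615 run (chromosome 17, 88298000 to 88393000) ends 47.71 kb before Foxn2, a forkhead transcription factor gene. Nearly all its members, 17 of 19, lie on the strand of the lincRNA gene AC165153.1. The run had 5197 ± 559 normalised counts in Nrl knockout and 941 ± 85.7 in wild-type libraries, a log2 difference of 2.46, with low spread in both. MSTRG.40948 (88331928 to 88388759, minus strand, 56832 bp), whose upstream end is next to the Gm31615 start printed above, took 70.6% of the run in Nrl knockout and 68.8% in wild-type libraries. It had 3802, 3355, 4046, 3276, 3890 and 3633 normalised counts in Nrl knockout libraries, against 600.7, 652.1, 606.1, 688.7 and 689.0 in wild-type libraries, a log2 difference of 2.50 ± 0.13 (SE). MSTRG.40948 also covers the small nuclear RNA gene Gm22542. MSTRG.40940 (88311414 to 88312155) had the largest log2 difference of the run, 2.82, with 23.0 ± 4.81 normalised counts in Nrl knockout and 2.85 ± 1.78 in wild-type libraries. MSTRG.40934 (88301771 to 88302226) had the smallest, 1.44, and there knockout 4, at 1.92, was below 3 wild-type libraries. At the right edge MSTRG.40952, too low to be tested, was the 1 other member with a lower mean in Nrl knockout libraries, 2.89 ± 1.57 normalised counts in Nrl knockout and 7.23 ± 4.68 in wild-type libraries.

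The smallest differences were in the Gm20327, Gm19786 and Gm42339 runs. Gm20327 (chromosome 12, 22868000 to 22949000) was the weakest run in level, with 364 ± 51.3 normalised counts in Nrl knockout and 98.9 ± 15.1 in wild-type libraries, a log2 difference of 1.87. A short member at its downstream edge, MSTRG.19276 (22868022 to 22868727), held 23.2% of it in Nrl knockout and 19.9% in wild-type libraries, at 84.4 ± 13.95 normalised counts in Nrl knockout and 19.7 ± 5.93 in wild-type libraries, a log2 difference of 2.07. MSTRG.19292 (22897968 to 22898150) differed as much, 2.07, with 7.995 ± 3.71 normalised counts in Nrl knockout and 1.42 ± 1.60 in wild-type libraries. MSTRG.19306 (22948430 to 22948938) was the tested member that was not called, with 7.28, 10.1, 15.8, 8.64, 17.4 and 7.81 normalised counts in Nrl knockout libraries, against 4.11, 3.76, 14.9, 3.87 and 5.04 in wild-type libraries. Wild-type 3 lay among the Nrl knockout values, and without it MSTRG.19306 was called higher, with a log2 difference of 1.16 in place of 0.84.

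Gm19786 (chromosome 12, 18544000 to 18577000) was the shortest window and had 1128 ± 329 normalised counts in Nrl knockout and 404 ± 84.0 in wild-type libraries, a log2 difference of 1.47. The highest member, MSTRG.19047 (18544250 to 18547368), took 22.3% in Nrl knockout and 22.9% in wild-type libraries. MSTRG.19047 had 176.8, 212.0, 263.9, 262.0, 367.0 and 227.5 normalised counts in Nrl knockout libraries, against 67.2, 98.8, 85.4, 121.9 and 89.8 in wild-type libraries, so the groups stayed apart. MSTRG.19064 (18571400 to 18571683) differed most, by 2.12 on the log2 scale, with 8.21 ± 3.51 normalised counts in Nrl knockout and 1.87 ± 2.63 in wild-type libraries. The smallest difference was at MSTRG.19067 (18575067 to 18576042), 1.02 on the log2 scale, with 17.2 ± 11.5 normalised counts in Nrl knockout and 7.34 ± 3.10 in wild-type libraries. Knockout 5, at 39.4, was the highest, and without it the log2 difference was 0.75. MSTRG.19067 was not called without knockout 3, 4, 5 or 6, or without wild-type 1 or 4. The transcript of the pseudogene Gm19786 has 49 other genes with at least 90% identity over at least 50% of its 580 bp, the best at 98.6%. Reads could be split among these copies, so the values of this run are uncertain. None of the other annotated transcripts compared in 5 of the runs had such a copy, and none was compared for Gm41734, Gm42339 and Gm20327. Matches below these limits were found in 1924 other genes for AC165153.1 and in up to 45 for AC165153.2, both of the Gm31615 run. For Gm47456 there were 2. The sequence of the members themselves was not searched, so sharing of reads in the other runs was not judged.

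Gm42339 (chromosome 4, 142385000 to 142477000) had the smallest difference, 1.09 on the log2 scale, and the highest wild-type level of all runs. It held 3716 ± 376 normalised counts in Nrl knockout and 1749 ± 236 in wild-type libraries, the closest approach being 3318 in knockout 2 and 2133 in wild-type 1. All 25 members are intergenic on the minus strand, and the nearest coding start, 145.6 kb to the left, is that of Kazn, a gene for a protein of cell junctions. MSTRG.65030 (142393371 to 142411855) had both the highest level and the smallest difference of the run, 0.93, with 2023, 1606, 1466, 1488, 1704 and 1528 normalised counts in Nrl knockout libraries, against 1292, 828.1, 741.6, 753.5 and 764.6 in wild-type libraries. Replicate 1 was the highest in both groups. MSTRG.65040 (142444272 to 142444688), much lower, differed most, by 2.12, with 11.7 ± 5.56 normalised counts in Nrl knockout and 2.28 ± 2.16 in wild-type libraries.

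Per kb of covered sequence, the order of the runs changed. The Adrb1 run had 222.3 normalised counts per kb in Nrl knockout and 18.3 in wild-type libraries, and the Gm38563 run 122.8 in Nrl knockout and 19.9 in wild-type libraries. The Gm47456 run, with the longest window, had 32.0 per kb in Nrl knockout and 4.67 in wild-type libraries, and the Gm20327 run 9.76 in Nrl knockout and 2.65 in wild-type libraries. Most of the covered length of Gm20327 is 1 member, MSTRG.19279, of 34473 bp, which holds 3.99% of the run in Nrl knockout libraries. On this scale the Gm42339 run, with 55.8 in Nrl knockout and 26.3 in wild-type libraries, had the highest wild-type level, and the Gm41734 run, with 35.8 in Nrl knockout and 4.62 in wild-type libraries, the next to lowest. In several runs the difference varied little between the more abundant members. Among members with a mean of at least 20 normalised counts, log2 differences spanned 3.00 to 3.28 in the 4930543I03Rik run, 0.93 to 1.36 in Gm42339, 1.29 to 1.71 in Gm19786 and 2.24 to 2.74 in Gm31615, but 1.32 to 5.00 in the Adrb1 run and -1.15 to 3.70 in Gm47456.

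Position along a run was compared within the Nrl knockout libraries, in windows that were themselves selected on the difference between the genotypes. Main-strand members were put on the upstream or the downstream side of the middle of the window, in the sense of transcription, by their own midpoint. Each side is thus a fixed set of members, and in several runs the covered lengths, given below, were unlike. The test asks only whether the libraries agree on which side has the larger sum, and it does not test a trend with position. The summed level was higher upstream in 5 runs and higher downstream in 3, each in 6 of 6 Nrl knockout libraries (exact two-sided sign-flip permutation test, p = 0.03125, the smallest that 6 libraries allow; p = 0.03516 after Benjamini-Hochberg adjustment over the 9 runs). The upstream side was higher in Gm41734 (2403 ± 558 normalised counts upstream against 218 ± 56.9 downstream, a log2 ratio of 3.46 ± 0.07, SD), Gm31615 (2.93 ± 0.08), Gm38563 (2.66 ± 0.19), Gm47456 (2.04 ± 0.09) and Gm19786 (1.53 ± 0.23). The downstream side was higher in Adrb1 (1147 ± 210 upstream against 10881 ± 2208 downstream, -3.24 ± 0.16), Gm20327 (-3.13 ± 0.42) and Gm42339 (-0.45 ± 0.24). For 4930543I03Rik the ratio was 0.36 ± 0.50, upstream being higher in 4 of 6 libraries (exact permutation p = 0.1875, adjusted p = 0.1875), and no difference was detectable.

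These are sums, and a member is counted whole on 1 side, so the length that members cover on each side bears on the ratios. Members covered 64.9 kb upstream and 8.30 kb downstream in the Gm41734 run, 57.2 and 13.4 kb in Gm31615, 6.67 and 45.7 kb in Adrb1, and 1.79 and 35.6 kb in Gm20327. Per covered kb, the Gm41734 run had 37.0 normalised counts upstream and 26.3 downstream in Nrl knockout libraries. Gm31615 had 80.3 and 45.0, Adrb1 172.1 and 238.0, and Gm20327 21.4 and 9.17. On this scale Gm20327 was higher upstream, but its downstream length is mostly that of 1 member, MSTRG.19279. That member spans 34473 bp and holds 3.99% of the run in Nrl knockout libraries. In the other runs the covered lengths were closer, and the levels per covered kb were 47.3 upstream and 13.1 downstream in Gm47456, 224.0 and 32.5 in Gm38563, 60.8 and 34.4 in Gm19786, 51.2 and 59.8 in Gm42339, and 54.6 and 47.7 in 4930543I03Rik. The levels per kb were not tested. When each window was divided at the member in the middle of its covered length, the log2 ratio of the sums turned round in 2 runs. By the exact permutation test, it was -8.79 in the Gm31615 run (adjusted p = 0.04018) and 0.20 in the Gm20327 run (adjusted p = 0.2461). For Gm31615 the adjusted p was thus below 0.05 in opposite directions under the 2 divisions, because its most abundant member, MSTRG.40948, changed sides. It was counted upstream in the first division and downstream in the second, where little of the level was left upstream. Neither p is therefore read as a direction along this run. The log2 ratio was 0.56 in the Gm41734 run, 1.02 in Gm19786, 1.60 in Gm47456, 3.46 in Gm38563 and -2.46 in Adrb1. The upstream share was close in both genotypes for most runs: 80.4% in Nrl knockout and 83.6% in wild-type libraries for Gm47456, 86.3% in Nrl knockout and 87.8% in wild-type libraries for Gm38563, 56.0% in Nrl knockout and 55.5% in wild-type libraries for 4930543I03Rik, and 9.62% in Nrl knockout and 8.46% in wild-type libraries for Adrb1. It was farthest apart in the Gm20327 run, 10.3% ± 2.52 in Nrl knockout and 19.2% ± 4.95 in wild-type libraries, a difference that was not tested.

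**Figure D4:**
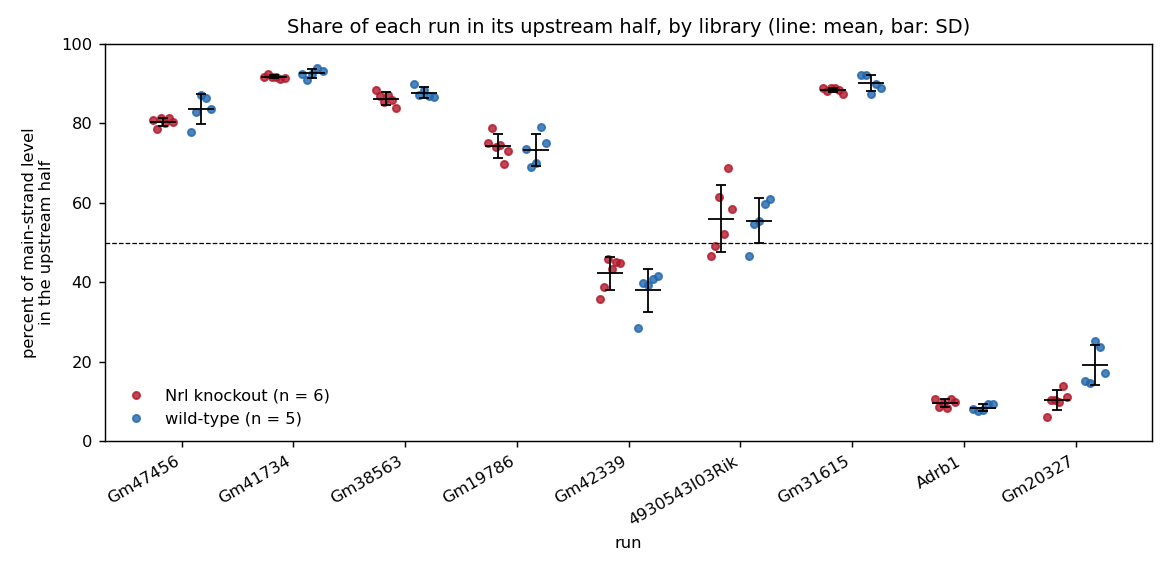
Percent of the main-strand level of each run that lies upstream of the middle of its window, by library, with mean and SD; the dashed line marks equal shares. Gm41734 has 91.7% upstream in Nrl knockout libraries and Adrb1 9.62%, with wild-type libraries nearby.

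Levels per kb were also read member by member along the runs. In the Gm47456 run the members of 5 kb or more had, from upstream to downstream, 67.6 (MSTRG.20477), 39.3 (MSTRG.20475), 41.8 (MSTRG.20473), 31.8 (MSTRG.20464) and 8.59 (MSTRG.20413) normalised counts per kb in Nrl knockout libraries. Levels in the Gm38563 run were also lower farther along transcription, with 225.1 at MSTRG.31815, 41.1 at MSTRG.31818 and 28.8 at MSTRG.31826. The 4930543I03Rik run was flatter, with 74.2 at MSTRG.33151, 49.8 at MSTRG.33155, 39.1 at MSTRG.33158 and 48.0 at MSTRG.33167, and the Gm41734 run was flat at 36.0 to 48.4 over its 4 long members. In the Gm42339 run the level was high at both ends, 65.2 at MSTRG.65049 upstream and 88.5 at MSTRG.65030 downstream, and lower between them, 37.6 at MSTRG.65037 and 27.8 at MSTRG.65032. In the Gm31615 run the highest long member, MSTRG.40950 with 118.3 per kb, is nested in MSTRG.40948 with 64.5, and the sources used here do not say whether reads of the overlap were counted for both. On the Adrb1 run the main strand had 215.2 per kb at MSTRG.46602, 41.6 at MSTRG.46592 and 375.4 at MSTRG.46587, from upstream to downstream. The 1 long member of the Gm20327 run, MSTRG.19279, spans 34 kb at 0.421 per kb.

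**Figure D5:**
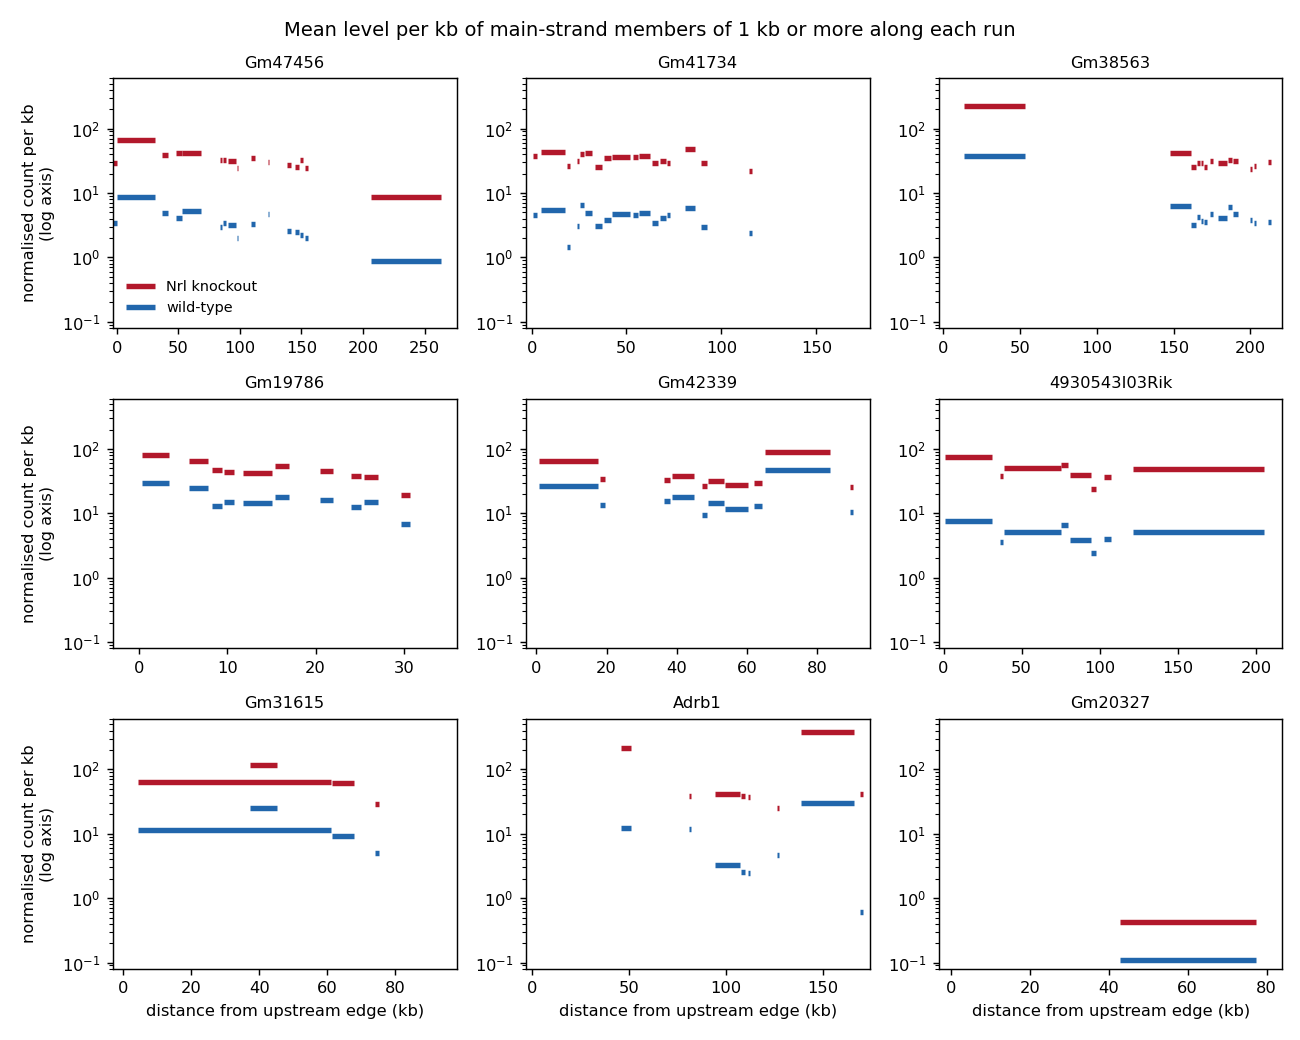
Mean level per kb (log axis) of main-strand members of 1 kb or more against distance from the upstream edge of the window in kb, one panel per run; bars span each member, Nrl knockout and wild-type libraries. The Nrl knockout bar lies above the wild-type bar at every member drawn; Gm47456 and Gm38563 are lower downstream, and Adrb1 is highest downstream.

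Where the windows end matters for some runs. At the upstream edge of Gm47456 and of Gm41734, the next feature on the same strand had a difference like that of the run. MSTRG.20487 (68509530 to 68603778, minus strand), 26.5 kb upstream of the Gm47456 window, had 1591 ± 196 normalised counts in Nrl knockout and 179 ± 12.6 in wild-type libraries, a log2 difference of 3.14, and MSTRG.20485 just inside had 116.4 normalised counts in Nrl knockout and 13.6 in wild-type libraries. MSTRG.43042 (55539791 to 55664770, plus strand), 7.23 kb upstream of the Gm41734 window, had 6545 ± 991 normalised counts in Nrl knockout and 852 ± 91.1 in wild-type libraries, a log2 difference of 2.93 and a level above the sum of the run. At 4930543I03Rik the nearest features outside the window were not higher in Nrl knockout. MSTRG.33150 just inside had 59.1 normalised counts in Nrl knockout and 5.65 in wild-type libraries. MSTRG.33148, 11.6 kb outside the left edge, had 0.623 in Nrl knockout and 4.51 in wild-type libraries, and MSTRG.33170, 6.60 kb after the window on the other strand, had 273 ± 68.5 in Nrl knockout and 316 ± 78.9 in wild-type libraries. No feature lay within 100 kb upstream of Gm38563, Gm19786 and Gm31615; the nearest were 504.6, 106.8 and 100.9 kb away. Within 100 kb to the right of the Gm20327 window, 27 of 36 tested features were called higher and none lower, against the 15.6% and 12.6% of all tested features. Higher were also 10 of 11 to the right of Gm41734, 8 of 11 to the left of Gm42339 and 11 of 22 to the right of Gm19786, with none lower. To the right, 3 of 7 were higher at 4930543I03Rik and 2 of 10 at Adrb1, with none lower. To the left of 4930543I03Rik, 1 of 6 was higher and 2 lower. The other sides had at most 3 tested features.

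The deposited table also names, for each chromosomal domain or interval between domains, the mRNAs that the authors list as higher or lower. The Gm19786 and Gm20327 runs lie in intervals labelled as between domains, and the Gm38563 run in 2 domains. All are called domains here. Such mRNAs were listed as higher for 7 of the 9 runs: they include Adrb1 for the Adrb1 run, Epcam, an epithelial adhesion molecule, for Gm31615, Zfp608 for Gm41734, A1bg for Gm38563, Kazn and Tmem51, a transmembrane protein gene, for Gm42339, 5730507C01Rik for Gm19786 and 9030624G23Rik for Gm20327. Fhad1, a gene with a forkhead-associated domain, was listed as lower in the domain of Gm42339. No mRNA was listed for Gm47456 and 4930543I03Rik. The share of all domains that list a higher mRNA was not worked out here, so nothing is read from the 7 of 9. The other features of a domain are read against the 15.6% higher and 12.6% lower among all tested features. Around Gm20327, 52 of 73 tested were called higher, around Gm19786 36 of 74, around Gm42339 12 of 35, around Gm31615 4 of 17, around Gm38563 4 of 6 and around Gm47456 3 of 11. None was called lower around these 6 runs. Around Gm41734, 24 of 43 were called higher and 2 lower, and around Adrb1 3 of 15 higher and 2 lower. Around 4930543I03Rik, 6 of 64 were called higher and 18 lower, with a median log2 difference of -0.56. The coding gene that ended closest upstream of a run on its own strand was 5730507C01Rik, 8.75 kb before the Gm19786 window, followed by Ccdc186, 29.5 kb before the Adrb1 window; for the other 7 runs the nearest such gene ended 91.5 kb or more upstream.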

How the data were processed

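Whole retinas were profiled by stranded single-end sequencing of 50 bp reads from RNA depleted of poly(A) transcripts, per the labels' protocols. The value columns are signal, read counts per feature that the authors normalised with DESeq2, per the file name, on mm10. Per the file headers, the authors deposited their own comparison as a log2 fold change, a test score, a p-value and its adjusted form. The submitters' processing notes list TopHat2 2.0.10, Cufflinks 2.2.1 and Cuffdiff without roles. The sources used here name no counting tool. Table starts count from 0 and were written counting from 1.

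The members and gene lists were chosen with earlier results of these data known. Each member was used 1 time (83 features have a line in 2 domains), and a run was the sum of its members. limma 3.58.1 (trend, robust; R 4.3.3) was fitted to log2(normalised count + 1) of all 21395 features with a mean of at least 5, with Benjamini-Hochberg adjustment and a threshold of 0.05. Log2 differences of low features are understated on this scale. Run differences are differences of mean log2(sum + 1). Values are means ± SD unless marked SE, with 6 Nrl knockout and 5 wild-type libraries. Annotation was GENCODE M21.

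Values were whole multiples of the worth of 1 read in 100% of cases (tolerance 0.001), so edgeR 4.0.16 and DESeq2 1.42.0 were run on whole reads of 9 libraries as alternatives. Knockout 2 and wild-type 5, where 1 read is worth 1.0097 and 1.0087 normalised counts, were left out of these. Their values were whole multiples as well. A count of 0 allows up to 3 reads, 2.28 to 4.11 normalised counts by library. Both such limits and read-ratio intervals reflect counting error alone. Tested on simulated data of 21395 features, limma called 63 of the 66 features given a 4-fold change, 19 of 74 given a 2-fold and 4 of 60 given a 1.5-fold change. Only these features were changed there, and all features had the same dispersion (spread beyond counting error). In the data the fit called 15.6% of features higher and 12.6% lower, which eases the adjusted threshold. The simulated shares are therefore no estimate of what the fit misses in the data. Named in each run were the member with the highest mean, and the tested members with the largest and the smallest log2 difference, plus the longest member. Members of 5 kb or more, members at the edges and the plus-strand members of the Gm47456 run were added after their values were seen. A listed mRNA is not reported here.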

Additional observations from a re-analysis of the deposited data

Results flagged for a closer look

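Sums and members, among them the sums of the 9 runs and the named members, were examined in each genotype for a library far from the others (a gap to its nearest neighbour that is large against the range of the group). Of 78 groups 10 had one, where chance gives about 1 in 20 for independent groups. A run and its members share reads, so the groups are not independent. The Adrb1 run and its most abundant member MSTRG.46587 were highest in wild-type 1 among wild-type libraries, at 1854 and 1229 normalised counts. The 4930543I03Rik run and its longest member MSTRG.33167 were also highest in wild-type 1, at 1221 and 640.5, as was MSTRG.65030 of the Gm42339 run, at 1292. In the Gm19786 run wild-type 1 was the lowest, at 259.2. Over the 9 runs, wild-type 1 was the highest wild-type library in 3 and the lowest in 5. Wild-type 3 stood apart for MSTRG.43049, at 6.50, and for MSTRG.19306, at 14.9. Knockout 5 was far above the other Nrl knockout libraries for the Gm20327 run, at 463.4, and for MSTRG.19067, at 39.4. It was the highest Nrl knockout library in 5 of the 9 runs and the lowest in the Adrb1 run. No explanation of these libraries was tested.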

How the results depend on the processing

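The count of members called higher, 181, was 179 to 182 with another pseudocount, the replicate block (182, with 3 lower), equal library medians, edgeR (180), DESeq2 (179) or limma on the same 9 libraries (180, chosen after seeing the data), and 178 to 182 leaving out each library. It was 251 with no filter, and 92 with a mean of at least 20, where fewer features were tested. The count called lower, 3, was 2 to 4. Over the settings other than these filters, 13.8% to 17.4% of all tested features were called higher and 11.1% to 14.9% lower. Replicate numbers gave correlations of 0.001 to 0.294 between same-numbered libraries, with 2 of 5 best matched to their own number, so they were not taken as pairs. Of 135 run differences under alternatives 134 stayed within the replicate spread; Gm47456 was 3.12 on its main strand alone. Of 509 values of named members, 501 kept direction and call, none turned round, 6 lost the call, all MSTRG.19067 (adjusted p from limma 0.05365 to 0.1257 without knockout 3, 4, 5 or 6 or wild-type 1 or 4), and 2 gained it, both MSTRG.19306 (with the block or without wild-type 3). The upstream to downstream log2 ratio turned round when the window was divided by covered length for Gm31615 (-8.79) and Gm20327 (0.20). For Gm31615 this followed from MSTRG.40948 changing sides. Leaving out 1 Nrl knockout library, it was 2.02 to 2.07 for Gm47456, 3.44 to 3.48 for Gm41734, 2.60 to 2.71 for Gm38563, 1.46 to 1.60 for Gm19786, -0.49 to -0.37 for Gm42339, 2.92 to 2.96 for Gm31615, -3.27 to -3.19 for Adrb1 and -3.23 to -2.98 for Gm20327; 5 libraries cannot give an exact permutation p below 0.0625. At this depth the 93 members with a mean under 5 normalised counts could not be judged one by one.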
